A study of Mus musculus with 8 samples.

Results

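Expression of 10 genes for apolipoproteins and for the assembly of very-low-density lipoprotein (VLDL) was measured in the liver: Apob, Mttp, Tm6sf2, Apoa1, Apoa4, Apoa5, Apoc2, Apoc3, Apoe and Apom. They were chosen by symbol, 10 of the 25239 symbols counted, and all 10 were among the 12977 genes that passed the filter on low counts. RNA was sequenced from whole liver of 8 adult male Smo fl/fl (Smo tm2Amc /J) mice on a C57Bl6/J background. All had eaten a choline-deficient, L-amino acid-defined, high-fat diet (CDA-HFD) for 6 weeks, a diet that injures and fattens the liver. At 1 week before sacrifice, 4 mice received AAV8-TBG-Luciferase by tail vein (control) and 4 received AAV8-TBG-Cre Recombinase, which deletes the floxed Smo (Smo-KO). The TBG promoter is active in hepatocytes, so the deletion is directed at these cells and not at the rest of the liver, and the mice are described as adult. An age at injection is stated for the chow-fed mice of the study and not for those on the CDA-HFD. Controls, whose genotype is labelled WT, carried the floxed alleles and had the diet and a vector too, and the comparison asks what changed with Smo, the transducer of the Hedgehog signal. Each liver had between 8203299 and 9999732 reads assigned to genes.

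The 10 genes code for the coat and the assembly line of plasma lipoproteins. ApoB is the large structural protein that stays with 1 particle for its whole life, microsomal triglyceride transfer protein (Mttp) loads lipid onto it in the endoplasmic reticulum, and Tm6sf2 is a membrane protein needed for full lipidation of the particle. The smaller apolipoproteins exchange between particles: ApoA1 is the main protein of high-density lipoprotein (HDL), ApoC2 activates lipoprotein lipase, ApoC3 restrains it and slows remnant uptake, ApoA5 favours lipolysis, ApoE is the ligand for remnant receptors, ApoA4 enlarges nascent particles, and ApoM carries sphingosine-1-phosphate on HDL. Choline deficiency is known as a diet that impairs VLDL export, because phosphatidylcholine is needed for the particle surface.

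Deletion was checked first. Smo measured 8.2, 8.5, 8.7 and 8.2 CPM (read counts scaled to a common library size after trimmed-mean correction) in controls 1 to 4, against 5.7, 3.9, 4.3 and 4.4 CPM in Smo-KO livers 1 to 4. The groups did not overlap, and transcript of the gene was still counted in every Smo-KO liver. The log2 fold change (Smo-KO over control throughout) was -0.88 ± 0.16 (SE), with an adjusted p of 0.0957 by edgeR's quasi-likelihood test and 0.00646 by DESeq2.

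None of the 10 genes passed the test across all genes. With edgeR's quasi-likelihood test and Benjamini-Hochberg adjustment, 0 of 10 had an adjusted p under 0.05, and the share over all genes tested was 0%. Before adjustment, 2 of 10 had a p under 0.05, Apoa5 and Apoc2, beside 13.8% of all genes tested. Both were higher in Smo-KO, a direction with 6.7% of all genes, and none of the 10 was lower at that p, against 7.15% of all genes. In an edgeR fit with mouse number as a block, the 2 genes were Apoc2, higher, and Tm6sf2, lower, beside 16.3% of all genes. DESeq2 called 0 of the 10 and 1.29% of all genes. Means of 6 of the 10 genes were higher in Smo-KO and 4 were lower, and the median log2 fold change was 0.13, against -0.00 over all genes tested. In whole liver, fewer cells of a type and less RNA per cell cannot be told apart. The p-values rest on the spread between 4 livers a group, which the main text of the study describes as 4 mice each. A supplemental figure legend on these RNA-Seq data gives fewer mice per group.

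The start regions of 4 of the genes are shown because these genes stand for the patterns described next: Apob and Mttp, the assembly pair, and Apoa4 and Apoa5, neighbours of 1 cluster whose group means lay on opposite sides. The side of Apoa4 rests on control mouse 3, without which its log2 fold change was 0.06. A link between the sequences and the levels was not tested. Of the 10 genes, 8 had an entry in the RefSeq promoter table (GRCm38.p6, 250 bases before to 50 after the start, 5′ to 3′ on the gene's strand). Capitals mark motifs searched on both strands. TATAAA is a TATA-type box. CAAAG is the core read by HNF4, the hepatocyte nuclear receptor. TGACG is the core of a cyclic AMP response element, which CREB-H can read. CACGTG is an E-box read by USF and ChREBP. A match on the other strand shows as its reverse complement. AGGTCA, a nuclear receptor half-site, was searched as well and was in none of the 4. No capital stretches overlap. Apob lies at chr12:7977427-7977726 (plus strand), Mttp at chr3:138143369-138143668 (minus strand), Apoa4 at chr9:46240594-46240893 (plus strand) and the first listed start of Apoa5 at chr9:46268358-46268657 (plus strand).
Apob: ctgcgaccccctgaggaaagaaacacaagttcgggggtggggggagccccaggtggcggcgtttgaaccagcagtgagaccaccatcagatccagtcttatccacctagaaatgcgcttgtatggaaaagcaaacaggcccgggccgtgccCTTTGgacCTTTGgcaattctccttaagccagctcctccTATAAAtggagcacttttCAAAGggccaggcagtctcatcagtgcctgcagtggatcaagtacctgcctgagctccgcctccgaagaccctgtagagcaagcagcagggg
Mttp: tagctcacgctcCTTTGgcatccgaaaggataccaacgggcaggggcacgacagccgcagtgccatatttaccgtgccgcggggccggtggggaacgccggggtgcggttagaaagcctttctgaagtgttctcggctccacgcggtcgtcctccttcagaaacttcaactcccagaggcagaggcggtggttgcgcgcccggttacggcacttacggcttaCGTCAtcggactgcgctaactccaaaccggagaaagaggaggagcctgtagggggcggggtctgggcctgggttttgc
Apoa4: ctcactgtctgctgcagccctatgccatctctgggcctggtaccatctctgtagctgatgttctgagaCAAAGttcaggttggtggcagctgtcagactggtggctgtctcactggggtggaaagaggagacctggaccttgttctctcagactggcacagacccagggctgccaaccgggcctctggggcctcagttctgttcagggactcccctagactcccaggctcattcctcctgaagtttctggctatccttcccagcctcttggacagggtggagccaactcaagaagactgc
Apoa5: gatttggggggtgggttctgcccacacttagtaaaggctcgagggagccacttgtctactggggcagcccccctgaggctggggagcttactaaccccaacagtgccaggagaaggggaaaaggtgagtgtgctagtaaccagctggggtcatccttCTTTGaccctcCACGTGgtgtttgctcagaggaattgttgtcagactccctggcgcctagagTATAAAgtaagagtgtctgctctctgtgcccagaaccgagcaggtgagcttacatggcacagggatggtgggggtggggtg

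CAAAG was the one motif that all 4 windows held. The Apob window held it 3 times, starting at -99, -91 and -42 from the transcription start, with TATAAA at -60. Mttp had it at -238 and TGACG at -28, Apoa4 had it at -182, and Apoa5 had it at -93, with CACGTG at -82 and TATAAA at -31. All positions are from the RefSeq start. GENCODE M21 starts Apoa4 further upstream, at chr9:46240696, inside the window shown. The Mttp window lies wholly inside the GENCODE gene (chr3:138089854-138144968). For these genes the positions depend on the annotation used. Of the other genes with an entry, Apoc2 and Apoe held CAAAG, while Apoa1 and Apom held none of the motifs searched. These letters are common: of 32851 RefSeq promoters of the same length, 53.9% held CAAAG, 20.8% held TGACG, 16.3% held AGGTCA, 13.6% held TATAAA and 7.15% held CACGTG. The matches describe the sequence and are not binding sites measured here.

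**Figure D1:**
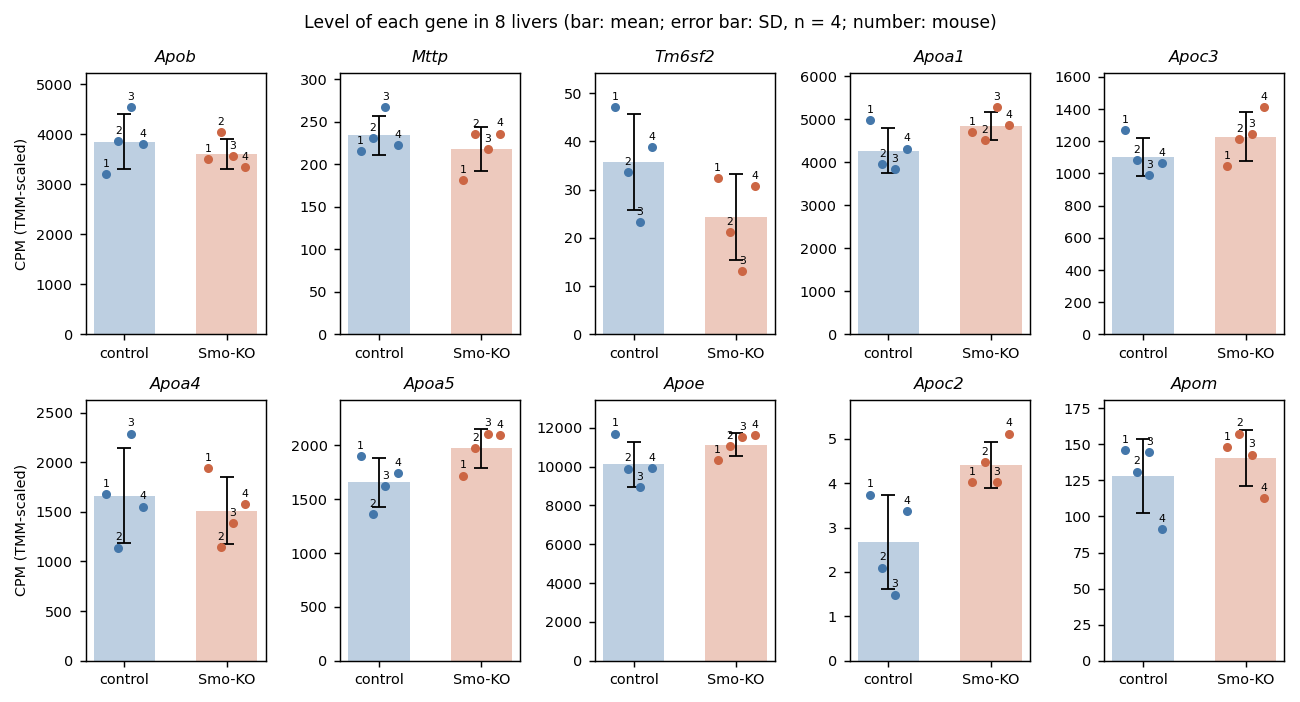
Level of each of the 10 genes in CPM (vertical axes, each from 0) in 4 control and 4 Smo-KO livers; points are mice with their numbers, bars are means and error bars are SD. Apoc2 is the only one of the 10 whose groups do not overlap.

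Apob, Mttp and Tm6sf2, the particle assembly genes, all had lower means in Smo-KO, and none of the 3 passed the test. For Apob this direction rests on control mouse 3, without which its log2 fold change was 0.0002. Apob (chr12:7977648-8016835, GRCm38, GENCODE M21) measured 3199, 3856, 4538 and 3809 CPM in controls 1 to 4, against 3506, 4042, 3558 and 3336 CPM in Smo-KO livers 1 to 4. All 4 Smo-KO livers lay inside the control range. For Apob the log2 fold change was -0.09 ± 0.11 (SE), with a 95% interval from -0.34 to 0.15 and an adjusted p of 0.757 by edgeR's quasi-likelihood test. Mttp (chr3:138089854-138144968) measured 215.8, 230.3, 266.8 and 222.2 CPM in the controls and 181.1, 235.2, 217.7 and 235.9 CPM in Smo-KO. Smo-KO mouse 1 was the lowest of the 8 livers, and the other 3 lay in the control range. Its log2 fold change was -0.10 ± 0.11 (SE; 95% interval -0.33 to 0.13), with an adjusted p of 0.704 by edgeR's quasi-likelihood test. The fold change was -0.02 without Smo-KO mouse 1 and -0.03 without control mouse 3. Antisense gene models overlap up to 7.36% of the exonic bases of Mttp. Reads there cannot be told apart if strand was not used in counting.

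Tm6sf2 (chr8:70072924-70080066) showed the widest spread of the assembly genes. It measured 47.1, 33.7, 23.4 and 38.8 CPM in controls 1 to 4, against 32.4, 21.3, 13.2 and 30.7 CPM in Smo-KO livers 1 to 4. Mice 2 and 3 of the Smo-KO group were below every control, and mice 1 and 4 lay among the controls. The mean was 35.7 CPM ± 9.92 in control and 24.4 CPM ± 8.93 in Smo-KO (SD, n = 4 each). Its log2 fold change was -0.54 ± 0.25 (SE), with a 95% interval from -1.09 to 0.00, an unadjusted p of 0.0511 and an adjusted p of 0.364 by edgeR's quasi-likelihood test. The estimate lay at -0.34 without Smo-KO mouse 3 and at -0.70 without control mouse 3, and in the latter case the groups did not overlap, as for 9.55% of all genes. With no filter on low counts its unadjusted p by edgeR was 0.0228. With mouse number as a block in the edgeR fit, its unadjusted p was 0.000239 and its adjusted p 0.0659.

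**Figure D2:**
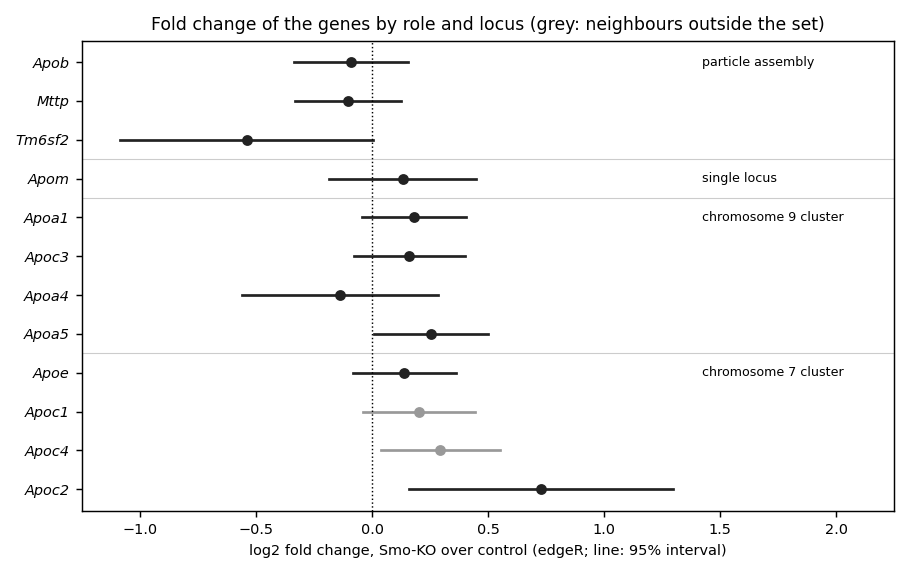
Log2 fold change of Smo-KO over control (horizontal axis) with 95% intervals from edgeR for the 10 genes (black) and 2 chromosome 7 neighbours (grey), ordered by role and locus. Among the 10, the intervals of Apoa5 and Apoc2 alone lie wholly on one side of 0.

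The genes Apoa1, Apoc3, Apoa4 and Apoa5 (4 of the 10) share 43.3 kb of chromosome 9 (chr9:46228580-46271919). Apoa1, Apoc3 and Apoa5 had higher means in Smo-KO and Apoa4 a lower one. Apoa1 measured 4981, 3953, 3846 and 4317 CPM in controls 1 to 4, against 4708, 4525, 5279 and 4862 CPM in Smo-KO livers 1 to 4. Each Smo-KO liver exceeded controls 2, 3 and 4, while control 1 exceeded all but Smo-KO mouse 3. Apoa1 had a log2 fold change of 0.18 ± 0.10 (SE; 95% interval -0.04 to 0.40) and an adjusted p of 0.465 by edgeR's quasi-likelihood test. Apoc3, on the opposite strand between Apoa1 and Apoa4, measured 1269, 1082, 988 and 1064 CPM in the controls and 1046, 1215, 1246 and 1411 CPM in Smo-KO. Smo-KO mouse 4 alone exceeded the highest control. For Apoc3 the log2 fold change was 0.16 ± 0.11 (SE; 95% interval -0.08 to 0.40), with an adjusted p of 0.55 by edgeR's quasi-likelihood test.

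Apoa5 had the lowest p of the chromosome 9 cluster. It measured 1900.3, 1362, 1625 and 1746 CPM in controls 1 to 4, against 1719, 1972, 2110.0 and 2099 CPM in Smo-KO livers 1 to 4. In 3 of 4 Smo-KO livers the level exceeded the highest control, and Smo-KO mouse 1 lay among the controls. The mean was 1658 CPM ± 228 in control and 1975 CPM ± 182 in Smo-KO (SD, n = 4 each). The log2 fold change was 0.25 ± 0.11 (SE; 95% interval 0.01 to 0.50), with an unadjusted p of 0.0451 and an adjusted p of 0.347 by edgeR's quasi-likelihood test. A two-sided exact permutation test over the 70 assignments of the mice gave p = 0.0857, where 0.0286 is the smallest it can give. With 1 mouse left out, the unadjusted p of Apoa5 by edgeR was over 0.05 in 6 of 8 fits (0.0562 to 0.145) and under it without control mouse 1 or Smo-KO mouse 1. With mouse number as a block in the edgeR fit, the unadjusted p of Apoa5 was 0.0607. An antisense gene model overlaps 20.8% of the exonic bases of Apoa5, and its reads cannot be told apart from those of Apoa5 if strand was not used in counting.

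Apoa4 varied more within the groups than between them. It measured 1677, 1139, 2288 and 1552 CPM in controls 1 to 4, against 1941, 1143, 1387 and 1578.5 CPM in Smo-KO livers 1 to 4. The highest liver, control mouse 3, held 2.01 times the level of the lowest, control mouse 2, and the Smo-KO livers lay between them. The log2 fold change was -0.14 ± 0.19 (SE; 95% interval -0.56 to 0.28), with an adjusted p of 0.794 by edgeR's quasi-likelihood test. Without control mouse 3 it turned to 0.06. Antisense models cover up to 34.9% of the exonic bases of Apoa4, under the same limit.

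Apoe and Apoc2 lie with Apoc1 and Apoc4 in 27.6 kb of chromosome 7 (chr7:19671579-19699188), and all 4 means were higher in Smo-KO. Apoe, the most counted of the 10, measured 11702, 9894, 8960.4 and 9921 CPM in controls 1 to 4, against 10339.6, 11064, 11529.9 and 11614 CPM in Smo-KO livers 1 to 4. As for Apoa1, every Smo-KO liver exceeded controls 2, 3 and 4, and control 1 was the highest of the 8. Its log2 fold change was 0.14 ± 0.10 (SE; 95% interval -0.08 to 0.36), with an adjusted p of 0.577 by edgeR's quasi-likelihood test. Apoc1, which codes for another exchangeable apolipoprotein and is not one of the 10, had a log2 fold change of 0.20, and Apoc4 had one of 0.29 with an unadjusted p of 0.0288.

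Apoc2 was the one gene of the 10 whose groups did not overlap, where 7.37% of all genes did not. Controls 1 to 4 gave 33, 20, 15 and 34 reads for it, and Smo-KO livers 1 to 4 gave 39, 41, 33 and 48. Scaled, these were 3.7, 2.1, 1.5 and 3.4 CPM against 4.0, 4.5, 4.0 and 5.1 CPM, so that the lowest Smo-KO liver lay just above the highest control. The log2 fold change was 0.73 ± 0.26 (SE; 95% interval 0.16 to 1.30), with an unadjusted p of 0.0161 and an adjusted p of 0.259 by edgeR's quasi-likelihood test. The exact permutation test gave its smallest two-sided p, 0.0286. These reads are few for a liver apolipoprotein. Of 813 exonic bases of Apoc2 in GENCODE M21, 646 (79.5%) are shared with Gm44805, a model on the same strand that runs through into Apoc4 and was listed at 0 reads in every liver, and 167 bases are Apoc2 alone. The level and the fold change of Apoc2 are therefore uncertain.

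Apom (chr17:35128997-35132050) lies outside both of these apolipoprotein clusters. It measured 145.7, 131.1, 144.7 and 91.2 CPM in controls 1 to 4, against 148.1, 157.4, 142.8 and 112.8 CPM in Smo-KO livers 1 to 4. Mouse 4 was the lowest of each group, and the groups overlapped. The log2 fold change was 0.13 ± 0.15 (SE; 95% interval -0.19 to 0.45), with an adjusted p of 0.733 by edgeR's quasi-likelihood test. Without control mouse 4 the fold change was 0.0026, so the difference rests on that liver. It was 0.07 without Smo-KO mouse 2 and 0.22 without Smo-KO mouse 4.

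Control mouse 1 weighed on several of these comparisons. Without it, 5 of the 10 genes had an unadjusted p under 0.05 by edgeR's quasi-likelihood test, beside 14.9% of all genes in the same fit. All 5 were higher in Smo-KO, a direction with 7.57% of all genes: Apoa1 (log2 fold change 0.26), Apoa5 (0.32), Apoc2 (0.92), Apoc3 (0.24) and Apoe (0.22). These 5 genes correlate with each other across the livers, as described below, so they are not 5 independent results. Apoa1, Apoc2 and Apoe (3 of 10) then had groups that did not overlap, beside 12.9% of all genes with 3 controls against 4 Smo-KO livers. The lowest adjusted p among the 10 was still 0.178. Without control mouse 2 or 4, or Smo-KO mouse 2 or 3, the count at that p was 1, Apoc2, beside 12.1, 12.1, 13.1 and 9.5% of all genes. It was 2 without control mouse 3 (10.6%) or Smo-KO mouse 4 (10.2%), in both cases Apoc2, higher, and Tm6sf2, lower. Without Smo-KO mouse 1 it was 3, Apoa5, Apoc2 and Tm6sf2 (17.8%). The log2 fold change of Apoc3 was 0.09 without Smo-KO mouse 4, and that of Apoe was 0.09 without control mouse 3.

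On the scale of CPM per kilobase of the longest transcript, which allows genes to be set side by side, the order of levels was the same in both groups. In control livers Apoe led with 7187 ± 814 and Apoa1 followed with 4130.0 ± 495 (SD, n = 4 each). Next came Apoc3 at 1553 ± 169, Apoa4 at 917 ± 262, Apoa5 at 659 ± 90.5 and Apob at 276 ± 39.3. Apom at 126 ± 25.2, Mttp at 59.0 ± 5.76 and Tm6sf2 at 24.7 ± 6.86 closed the order. Control livers of neighbours in this order did not overlap except for Apoa4 and Apoa5. Apoc2, at 3.68 CPM per kilobase, was not placed because of the shared bases. Apob, with a transcript of 13934 bases, therefore ranked the sixth per length although it was the third gene by CPM.

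Together the 10 genes took 2.42, 2.20, 2.31 and 2.30% of the assigned reads in controls 1 to 4, against 2.40, 2.39, 2.55 and 2.51% in Smo-KO livers 1 to 4. The means were 2.31% ± 0.0875 and 2.46% ± 0.0800 (SD, n = 4 each), and control mouse 1 lay inside the Smo-KO range. Apoe made up 43.8% of these reads in control and 45.1% in Smo-KO on average.

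**Figure D3:**
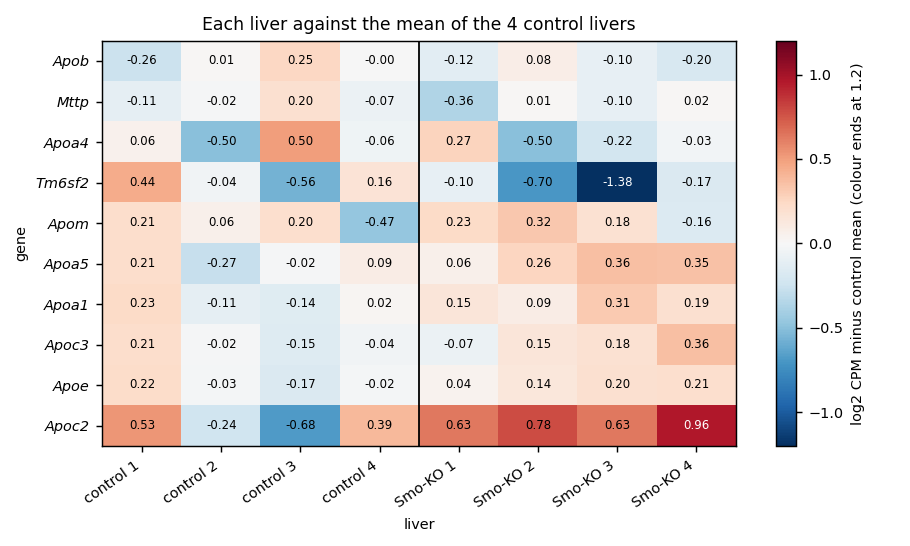
Log2 CPM of each gene (rows) in each liver (columns) minus the mean of the 4 control livers; red is above that mean and blue below, with the value in each cell. Apoa5, Apoa1, Apoc3, Apoe and Apoc2 correlate positively with each other across livers, and Apob negatively with Apoa1, Apoe and Apoc2.

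Across the 8 livers 5 apolipoprotein genes, Apoa1, Apoa5, Apoc2, Apoc3 and Apoe, had positive correlations with each other, while Apoa4 and Apom did not follow them. Of 45 pairs among the 10 genes, 18 had a positive correlation of log2 CPM, 10 had a Pearson r over 0.7 and 3 had one under -0.7. The 10 were all the pairs within these 5 genes, and the 3 were Apob with Apoa1, Apoc2 and Apoe. Apoc3 and Apoe had r = 0.92 and rho = 0.88 (exact permutation p = 0.00397 and 0.00724, and 0.0603 for r adjusted over the 45 pairs). Within the groups their r was 0.89, and without the 2 livers farthest from the median of Apoc3 it was 0.94. Of the 10 pairs, 5 had r under 0.7 within the groups, the lowest 0.59 for Apoa5 and Apoc2. Without the 2 extreme livers of the first gene, 4 were under 0.7: Apoa1 with Apoa5 (0.65), with Apoc3 (0.56) and with Apoc2 (0.27), and Apoc2 with Apoe (0.56). Leaving out extreme livers narrows the range and can by itself lower r, so these drops do not show what the 4 relations rest on. Apoa1 and Apoe had r = 0.90 and rho = 0.90 (exact permutation p = 0.00231 and 0.00456, adjusted 0.0603), with 0.86 within groups and 0.79 without the 2 extreme livers of Apoa1. Apob ran the other way: with Apoe it had r = -0.81 and rho = -0.81 (exact permutation p = 0.0140 and 0.0218, adjusted 0.105). Within the groups their r was -0.81, and without the 2 extreme livers of Apob it was -0.46, under the same limit. No pair had an adjusted p under 0.05.

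Transcript length went with a part of this pattern, and its role as a cause was not tested. In each liver, log2 CPM relative to the control mean was regressed on log2 transcript length over 12810 genes, and the slope per doubling of length was -0.05, 0.05, 0.02 and -0.02 in control mice 1 to 4 and -0.00, -0.00, -0.04 and -0.06 in Smo-KO mice 1 to 4. The livers with the most negative slopes, control mouse 1 and Smo-KO mice 3 and 4, were those with high Apoe and Apoa1, which are short, and among those with low Apob, which is long. Other short genes did not all follow. Relative to the control mean, Tm6sf2 (1446 bases) lay at 0.44 in control mouse 1, -1.38 in Smo-KO mouse 3 and -0.17 in Smo-KO mouse 4. Apom (1013 bases) lay at 0.21, 0.18 and -0.16 in the same livers. With the slope removed, 6 of the 10 pairs over 0.7 stayed over it and 4 did not: Apoa1 and Apoc3 went from 0.74 to 0.48, Apoa5 and Apoc3 from 0.75 to 0.55, Apoc2 and Apoc3 from 0.75 to 0.59, and Apoa5 and Apoe from 0.77 to 0.68. Apoc3 and Apoe had 0.84 and Apoa1 and Apoe 0.85, while Apob and Apoe went to -0.51. Apob and Mttp, 0.62 before, had 0.71 after. On the mean log2 CPM scale the group difference of Apob went from -0.09 to -0.03, that of Apoc3 from 0.16 to 0.10, that of Apom from 0.14 to 0.10, that of Apoa1 from 0.19 to 0.14, that of Apoe from 0.14 to 0.11, that of Apoa5 from 0.26 to 0.25, that of Apoc2 from 0.75 to 0.70, that of Mttp from -0.11 to -0.10, that of Apoa4 from -0.12 to -0.14 and that of Tm6sf2 from -0.59 to -0.61.

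**Figure D4:**
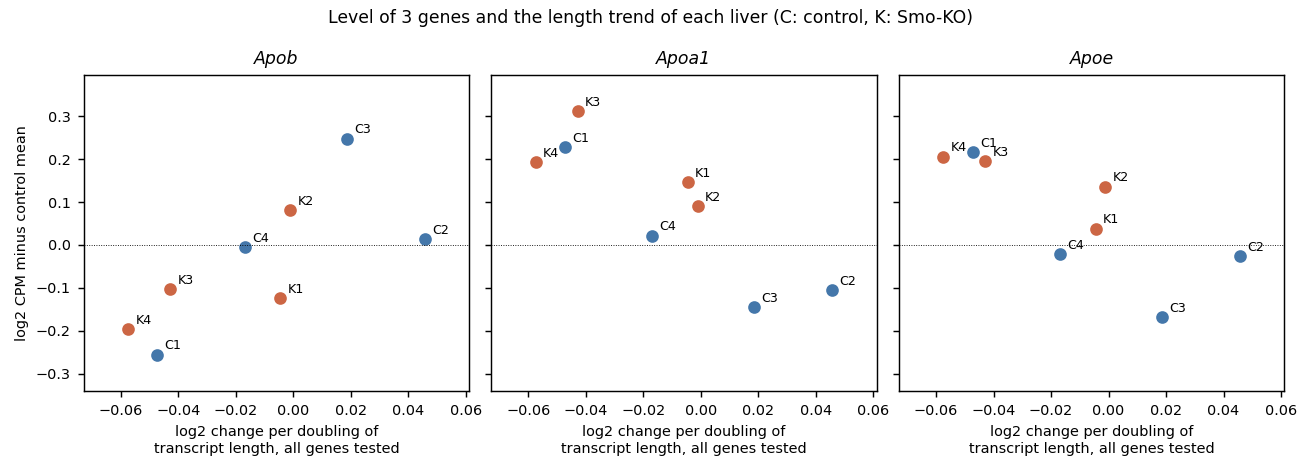
Log2 CPM minus the control mean (vertical axis) of Apob, Apoa1 and Apoe against each liver's slope of log2 CPM on log2 transcript length over 12810 genes (horizontal axis), for 4 control (C) and 4 Smo-KO (K) livers. Apoa1 and Apoe are highest, and Apob is below the control mean, in the 3 livers with the most negative slopes, C1, K3 and K4. Tm6sf2 and Apom, which are also short and did not follow in every one of these livers, are not shown.

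Other genes of the pathway were read in 5 lists, none of which held a gene with an adjusted p under 0.05 by edgeR. DESeq2 called 3 of their genes, Hspa5, Creb3l3 and Mlxipl, where it called 1.29% of all genes. Among other apolipoproteins and HDL proteins, 9 of 12 genes tested were higher in Smo-KO and 3 lower, with a median log2 fold change of 0.16, and 2 were higher and 0 lower at an unadjusted p under 0.05 (16.7%, against 13.8% of all genes). Apoc4 was one of them, and Saa1, an acute phase protein carried on HDL, was the other at 0.77. Saa1 measured 147.3, 232.6, 135.6 and 164.7 CPM in controls 1 to 4, against 134.4, 541.1, 189.9 and 297.1 CPM in Smo-KO livers 1 to 4. Saa2, its near copy, with which it can share reads, had 0.70 (unadjusted p = 0.0849 by edgeR), and Smo-KO mouse 2 stood highest for both.

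**Figure D5:**
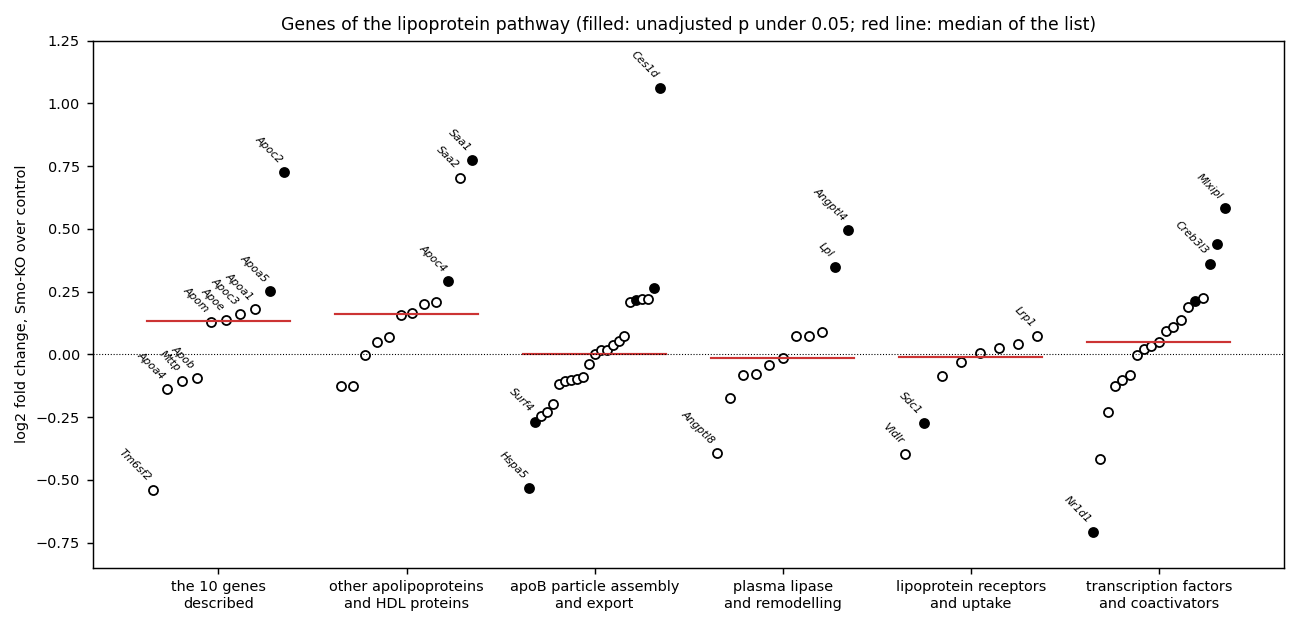
Log2 fold change of Smo-KO over control (vertical axis) for every gene tested in the 10 genes and 5 pathway lists; filled points have an unadjusted p under 0.05 by edgeR and red lines are list medians. Medians run from -0.01 for lipase genes and receptors to 0.16 for other apolipoproteins.

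Among 23 genes of apoB particle assembly and export, 12 were higher and 11 lower, with a median of 0.00, and 3 were higher and 2 lower at an unadjusted p under 0.05 (21.7%, against 13.8%). Ces1d, an esterase that mobilizes stored triglyceride for VLDL, measured 168.9, 147.6, 125.8 and 182.3 CPM in controls 1 to 4, against 157.7, 300.5, 478.8 and 367.8 CPM in Smo-KO livers 1 to 4. Smo-KO mouse 1 lay among the controls and the other 3 above them. Its log2 fold change was 1.06 ± 0.25 (SE), with an adjusted p of 0.140 by edgeR's quasi-likelihood test and 0.0855 by DESeq2, and Ces1 genes are near copies of each other that can share reads. Hspa5, the chaperone BiP of the endoplasmic reticulum, measured 1011, 1203, 1344 and 941 CPM in controls 1 to 4, against 796, 849, 613 and 853 CPM in Smo-KO livers 1 to 4, with no overlap. Its log2 fold change was -0.53 ± 0.13 (SE), with an adjusted p of 0.151 by edgeR's quasi-likelihood test, and DESeq2 called it at 0.0232. Surf4, the receptor that loads lipoproteins into transport vesicles, had -0.27 (unadjusted p = 0.0396 by edgeR).

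Of 11 plasma lipase and remodelling genes, 5 were higher and 6 lower (median -0.01), and 2 were higher and 0 lower at an unadjusted p under 0.05 (18.2%, against 13.8%). These were Lpl, lipoprotein lipase, with 258 CPM ± 33.7 in control and 329 CPM ± 33.0 in Smo-KO, and Angptl4, its inhibitor, with 201 CPM ± 44.4 and 283 CPM ± 43.8 (SD, n = 4 each). Their log2 fold changes were 0.35 and 0.49, with adjusted p of 0.216 and 0.220 by edgeR's quasi-likelihood test. Angptl8, a feeding-regulated modulator of lipase activity, had -0.39 (unadjusted p = 0.203 by edgeR), with Smo-KO mouse 1 the highest of the 8 livers and Smo-KO mice 2, 3 and 4 below every control.

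Of 8 genes for lipoprotein receptors and uptake, 4 were higher and 4 lower (median -0.01), and 0 were higher and 1 lower at an unadjusted p under 0.05 (12.5%, against 13.8%). This was Sdc1, a heparan sulphate proteoglycan that clears remnants, which measured 275, 288, 305 and 271 CPM in controls 1 to 4, against 257, 259, 199 and 225 CPM in Smo-KO livers 1 to 4. The groups did not overlap, and its log2 fold change was -0.28 ± 0.10 (SE), with an adjusted p of 0.258 by edgeR's quasi-likelihood test. Lrp1, a remnant receptor of hepatocytes, had 0.07 (adjusted p = 0.769), and Vldlr, counted at 5 to 14 reads a liver, had -0.40 (adjusted p = 0.676).

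Of 19 transcription factors and coactivators of apolipoprotein genes, 12 were higher and 7 lower (median 0.05), and 4 were higher and 1 lower at an unadjusted p under 0.05 (26.3%, against 13.8%), with 2 called by DESeq2 (1.29% of all genes). Creb3l3 (CREB-H), which is known to activate Apoa4, Apoa5 and Apoc2, measured 422, 392, 368 and 380.1 CPM in controls 1 to 4, against 443, 535, 558 and 471 CPM in Smo-KO livers 1 to 4. Mlxipl (ChREBP), the carbohydrate-sensing factor, measured 206, 183, 105 and 141 CPM in control and 238, 233, 235 and 245 CPM in Smo-KO. Neither gene overlapped between the groups. With Nr2f2 they were the 3 of 19 factors without overlap, beside 7.37% of all genes. The log2 fold changes of Creb3l3 and Mlxipl were 0.36 ± 0.10 and 0.58 ± 0.16 (SE). Their adjusted p was 0.163 and 0.175 by edgeR's quasi-likelihood test and 0.0313 and 0.0387 by DESeq2. Nr1d1 (REV-ERBα), a clock repressor, had -0.71 (unadjusted p = 0.0392 by edgeR), with 28.7 CPM in Smo-KO mouse 3 the lowest of the 8 livers.

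Cell type markers were read beside these values. Hepatocyte markers were abundant in every liver, led by Alb, and their summed level was 45669, 39783, 40646 and 41519 CPM in controls 1 to 4, against 40992, 40551, 37404 and 37864 CPM in Smo-KO livers 1 to 4. Of the 9 tested, 2 were higher and 7 lower, and control mouse 1 was again the highest. The hepatocyte marker Ass1, a urea cycle enzyme usually abundant in liver, had 1 read in Smo-KO mouse 3 and 0 in the other 7 livers, so a low count in these files is not by itself a low level. T and NK cell markers, led by Nkg7, summed to 40.5, 38.7, 33.0 and 47.4 CPM in control and 18.7, 15.4, 28.3 and 25.4 CPM in Smo-KO, and all 5 tested were lower at an unadjusted p under 0.05 (7.15% of all genes), 3 of them called by DESeq2 (1.29% of all genes). Their part in the apolipoprotein values was not tested.

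For the other cell types the sums overlapped between the groups. Macrophage markers, led by Cd5l, averaged 2517 CPM in control and 2608 CPM in Smo-KO, cholangiocyte markers, led by Spp1, 148 and 177 CPM, stellate cell and fibroblast markers, led by Col3a1, 1014 and 941 CPM, and endothelial markers, led by Clec4g, 146 and 125 CPM. Enterocytes also make Apob and Apoa4. Their list averaged 111 and 107 CPM, nearly all of it Fabp2, while Alpi, Cdx2 and Sis had 0 reads in every liver. As for Ass1, 0 reads in these files is not by itself a low level.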

How the data were processed

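Whole liver RNA was extracted with Trizol, made into libraries with the NEB Next Ultra RNA kit and sequenced on a NovaSeq. The authors deposited 1 table of raw read counts per gene symbol for each liver. The submitters' processing notes name fastp, STAR 2.7.5, featureCounts 2.0.1 and GRCm38, while the tables end in rows of the form that htseq-count writes. Annotation and strand setting are not given in the sources used here. Rows that name no gene averaged 10.9% of counted reads in the controls and 11.7% in Smo-KO and were left out.

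From the counts, genes were filtered with filterByExpr, scaled by TMM and tested with the quasi-likelihood test of edgeR 4.0.16 in R 4.3.3, with group as the only term and Benjamini-Hochberg adjustment over 12977 genes (threshold 0.05). DESeq2 1.42.0 was an alternative, with no independent filtering. Log2 CPM used a prior count of 2, and the SE is the one implied by the F statistic. Exact permutation tests between the groups used all 70 assignments, two-sided. Those for correlations permuted the 8 livers instead, without regard to group, so a shared group difference enters them. They do not test the correlations within groups, and they were added to a plan that had no p for correlations. Intervals cover 95%. Other scalings, filters, a block on mouse number and leaving out each mouse were tried, and the code was tested on simulated data. Removal of the length trend was added after the data were seen. Chi-square tests of the counts, run between livers of the same group, found no pair that agreed within sampling noise. Positions and transcript lengths come from GENCODE M21 (GRCm38), and promoters from RefSeq.

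The 10 genes and the 12 other gene lists were chosen with earlier results of these data known. Some genes of the lists are not reported here and were left out of the list counts. Named genes are Smo, the 10 genes, the 3 with the smallest unadjusted p in each pathway list, the most abundant marker of each cell type with any at 0, and the 3 most like Apob and Apoa4. Apoc1, Ass1, Trem2, Foxa1 and Nr2f2 were named after their values were seen.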

Additional observations from a re-analysis of the deposited data

How the results depend on the processing

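Over 15 other settings, 148 of 150 fold changes of the 10 genes kept their direction and none reached an adjusted p under 0.05 by edgeR or DESeq2. The exceptions in direction came without control mouse 3: Apob at 0.0002 (leave-one-out range -0.17 to 0.0002) and Apoa4 at 0.0576 (range -0.28 to 0.0576). Genes of the 10 with an unadjusted p under 0.05 ranged from 1 to 5 and those with no overlap from 1 to 3 when a mouse was left out, and the shares of all genes in the same fits ranged from 9.5 to 17.8% and from 9.31 to 16%. No scaling moved the median of all genes by over 0.1.

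Smo passed the threshold with DESeq2 (-0.87), with no filter on low counts (-0.88) and without Smo-KO mouse 1 (-0.997), and its leave-one-out range was -0.997 to -0.81. Over all genes, 0 were called by edgeR, 167 by DESeq2, 61 with no filter and from 0 to 78 when a mouse was left out, the 78 without Smo-KO mouse 1. The causes of these differences were not tested.

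A replicate block on mouse number called 8 of all genes and none of the 10, of which Tm6sf2 had the lowest adjusted p, 0.0659. Under this block Tm6sf2 (unadjusted p = 0.000239, lower in Smo-KO) and Apoc2 were the genes of the 10 at an unadjusted p under 0.05 by edgeR, beside 16.3% of all genes, and Apoa5 was not (0.0607). Livers of the same number had correlated deviations of 0.0611 to 0.187, and 3 of 4 controls correlated best with the Smo-KO mouse of their own number, a hint from the data and not the design, so the numbers were not taken as pairs.

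Among the 10 genes Apoc2 had the fewest reads, 15 to 48 a liver.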

Other observations

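Among the macrophage markers 1 of 12 (8.33%) had an unadjusted p under 0.05 by edgeR, against 13.8% of all genes. This gene, Trem2, a lipid-sensing receptor of macrophages, measured 33.6 CPM in control and 56.5 CPM in Smo-KO with no overlap (log2 fold change 0.75, adjusted p = 0.0957 by edgeR's quasi-likelihood test and 0.000169 by DESeq2). It was named after its values were seen. Foxa1 and Nr2f2, both regulators of apolipoprotein genes, were the remaining factors higher at an unadjusted p under 0.05, with log2 fold changes of 0.44 and 0.21.

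The genes whose log2 CPM followed Apob most closely over the 8 livers, among 12976 compared, were Luzp1 (r = 0.97), Ugt2b1 (0.96) and Ghitm (0.96). Those closest to Apoa4 were Rsph3a (0.99), Kif26a (0.96) and Kif23 (0.95). None of the 6 had an unadjusted p under 0.05 between the groups by edgeR's quasi-likelihood test. The highest of many correlations over 8 livers is a description of these livers, which share depth and length trends.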
